A study of Mus musculus with 9 samples.

Results

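The Dlk1-Meg3 domain of mouse chromosome 12 and the Mest-Copg2 domain of chromosome 6 were followed through 6 genes, Dlk1, Meg3, Rian, Mirg, Mest and Copg2. These are 6 of the 24736 genes in the table, 4 from the first domain and 2 from the second, and all 6 were detected in every library. They were chosen by their symbols with earlier results on these same libraries known, including the values across genotypes and replicate numbers. Their differences are therefore given as a description with errors and without a p-value. Tests are given for other genes.

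RNA was sequenced from caudal epiblast-like cells (CEpiLCs), which are mouse embryonic stem (ES) cells driven towards the tail-end epiblast of the embryo. WT cells, CdxKO cells (Cdx1/2/4-/-) and T/BraKO cells (T/Bra-/-) gave 3 libraries each, 9 in all. All 3 genotypes received 10 ng/ml bFGF and 5 uM LGK974, an inhibitor of WNT secretion. CHIR99021, which activates WNT signalling, was added for the last day, and RNA was taken on day 3 (72 h). The sources name 1 line for each genotype, so the mutation and the history of its line cannot be told apart. No label says that replicate numbers mark shared cultures or days, or that replicates came from separate clones.

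Imprinted genes are transcribed mainly from the copy inherited from 1 parent. At Dlk1-Meg3, the maternal copy carries Meg3, Rian and Mirg, a string of long noncoding RNAs on 1 strand that host small nucleolar RNAs and microRNAs, while the paternal copy carries the protein genes Dlk1, Rtl1 and Dio3. Methylation of an intergenic region between Dlk1 and Meg3 tells the copies apart, and loss of Meg3 RNA is a known defect of some cultured pluripotent stem cells. Mest, a paternally expressed gene of the mesoderm with an alpha/beta hydrolase fold, lies tail to tail with Copg2, which encodes a gamma subunit of the COPI coat of transport vesicles. These libraries measure total RNA from a gene and not the parental copy it came from.

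In RefSeq coordinates on GRCm38.p6, Dlk1 spans chr12:109452485-109463336, Meg3 chr12:109540996-109571729, Rian chr12:109603945-109661716 and Mirg chr12:109734981-109749458, all on the plus strand. The stretch from Dlk1 to Mirg is 297 kb, with gaps of 77.7, 32.2 and 73.3 kb between successive genes. Mest spans chr6:30733506-30748466 on the plus strand and Copg2 chr6:30747554-30896815 on the minus strand. The 2 genes overlap by 913 bases at their 3' ends. The reads were strand-specific and were counted by strand, but reads in this overlap still depend on how well the strand was kept.

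The 250 bases before a start of Meg3, Mest and Copg2 are shown. The first gene begins the maternal noncoding RNAs, and the other 2 genes are transcribed towards each other. For Mest the window shown is that of a later start, which lies inside the gene and not at the end of the domain. Capitals mark 2 motifs, searched on both strands with no overlap between their matches: the core bound by the imprint-keeping zinc finger protein ZFP57 (TGCCGC, or GCGGCA on the other strand) and the cyclic AMP response element (TGACGTCA, which reads the same on both strands). The sequences are RefSeq promoter sequences on GRCm38.p6, read 5' to 3' on the strand of the gene.
Meg3, chr12:109540746-109540995, plus strand: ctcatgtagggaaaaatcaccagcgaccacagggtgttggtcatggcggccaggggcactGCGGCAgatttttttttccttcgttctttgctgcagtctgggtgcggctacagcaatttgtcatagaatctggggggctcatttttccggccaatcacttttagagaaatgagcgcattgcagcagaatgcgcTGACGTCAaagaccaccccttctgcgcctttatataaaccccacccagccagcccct
Mest, a later start, chr6:30737803-30738052, plus strand: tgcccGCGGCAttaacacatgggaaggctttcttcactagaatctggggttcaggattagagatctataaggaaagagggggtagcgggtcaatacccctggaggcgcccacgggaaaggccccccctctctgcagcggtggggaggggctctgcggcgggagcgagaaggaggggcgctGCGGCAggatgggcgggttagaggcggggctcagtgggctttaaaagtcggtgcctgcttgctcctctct
Copg2, chr6:30896795-30897044, minus strand: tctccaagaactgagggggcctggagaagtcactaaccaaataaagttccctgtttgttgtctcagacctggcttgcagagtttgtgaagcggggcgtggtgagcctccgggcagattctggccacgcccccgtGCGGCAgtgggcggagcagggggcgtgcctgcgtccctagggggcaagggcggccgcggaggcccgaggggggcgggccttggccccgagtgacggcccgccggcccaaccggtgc

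The Meg3 window held 1 ZFP57 core, 190 bases before the start, and 1 cyclic AMP response element at 57 bases. The Mest window held 2 cores, at 245 and 70 bases, and the Copg2 window held 1 core at 116 bases. Of 32817 promoter windows of this length, 8.68% held the ZFP57 core and 1.55% the cyclic AMP response element. CpG dinucleotides numbered 10, 14 and 19 in the Meg3, Mest and Copg2 windows, beside a median of 6.0 over all windows. The window of the first start of Mest held 7. The windows of Dlk1, Rian and Mirg, of a later start of Meg3 and of the first start of Mest held neither motif. These matches are descriptions of the letters, and no binding was measured here.

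A few mature microRNAs of the 2 domains are shown with the seed, bases 2 to 8, in capitals, as examples of the small RNAs encoded there. The microRNA sequences used here hold 57 hairpins between the start of Meg3 and the end of Mirg, and 54 of them lie on the Meg3 strand. Those 54 give 106 mature microRNAs, and no seed was shared by more than 2 of these. RefSeq gene positions place 60 microRNA genes in this stretch, so some are not among the hairpins. Of the 4 shown, 3 come from this stretch and 1 from Mest.
miR-770-3p, in Meg3: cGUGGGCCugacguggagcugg
miR-127-3p, between Meg3 and Rian: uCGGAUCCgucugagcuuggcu
miR-410-3p, in Mirg: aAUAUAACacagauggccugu
miR-335-5p, in Mest: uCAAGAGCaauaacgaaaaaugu

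The libraries were made from polyadenylated RNA and do not measure these mature forms. Of the 60 microRNA rows in the Dlk1-Meg3 domain, 54 were at 0 in every library and the highest value was 4 counts, and all 7 small nucleolar RNA rows were at 0. The noncoding part of the domain was therefore followed through its long host transcripts.

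Total counts ran from 25124344 to 34705361 per library, and 45S pre-ribosomal RNA (Rn45s) took 0.343% to 4.21% of them, highest in CdxKO replicate 1 and T/BraKO replicate 1. Normalised T counts, the gene of T/BRA, lay between 1777 and 2894 in T/BraKO libraries and between 10899.6 and 14759.9 in WT. Cdx4 lay between 1.25 and 1.88 in CdxKO and between 60.0 and 161 in WT. For Cdx1 the ranges were 193 to 320 in CdxKO and 444 to 626 in WT, and for Cdx2 706 to 1625 and 2699 to 6106. Ddx3y, on the Y chromosome, was at 0 in all 3 CdxKO libraries and averaged 1727 in WT and 2397 in T/BraKO. Hprt averaged 3938 in T/BraKO, beside 21.7 in WT and 22.4 in CdxKO. The lines thus differed at loci other than those named in their genotypes, and the part of this in any difference below was not tested. Of the 11 caudal epiblast markers, which include T, Cdx1, Cdx2 and Cdx4, 11 had a count in every library. More than 3 counts in every library were found for 10 of them, all but Cdx4.

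Per length, Rian was the most abundant of the 6 genes, at 353 to 516 TPM (transcript abundance scaled by length and library total), and Meg3 the next, at 132 to 234 TPM. Mest followed at 44.2 to 150 TPM, Copg2 at 31.2 to 64.8 TPM, Mirg at 20.2 to 30.5 TPM and Dlk1 at 0.98 to 2.53 TPM. The ranges of Meg3 and Mest overlapped over the 9 libraries, as did those of Mest and Copg2, and the other neighbours in this order did not overlap. Within a library, Meg3 stood above Mest in all 9, and Mest stood above Copg2 in all but WT replicate 2. Rian and Meg3 were thus abundant in every genotype, while Dlk1 lay at the low end. The levels did not divide by the parental copy named above, since Mirg, of the maternal copy, lay below the paternally expressed Mest in every library. The copy that gave the RNA was not measured.

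**Figure D1:**
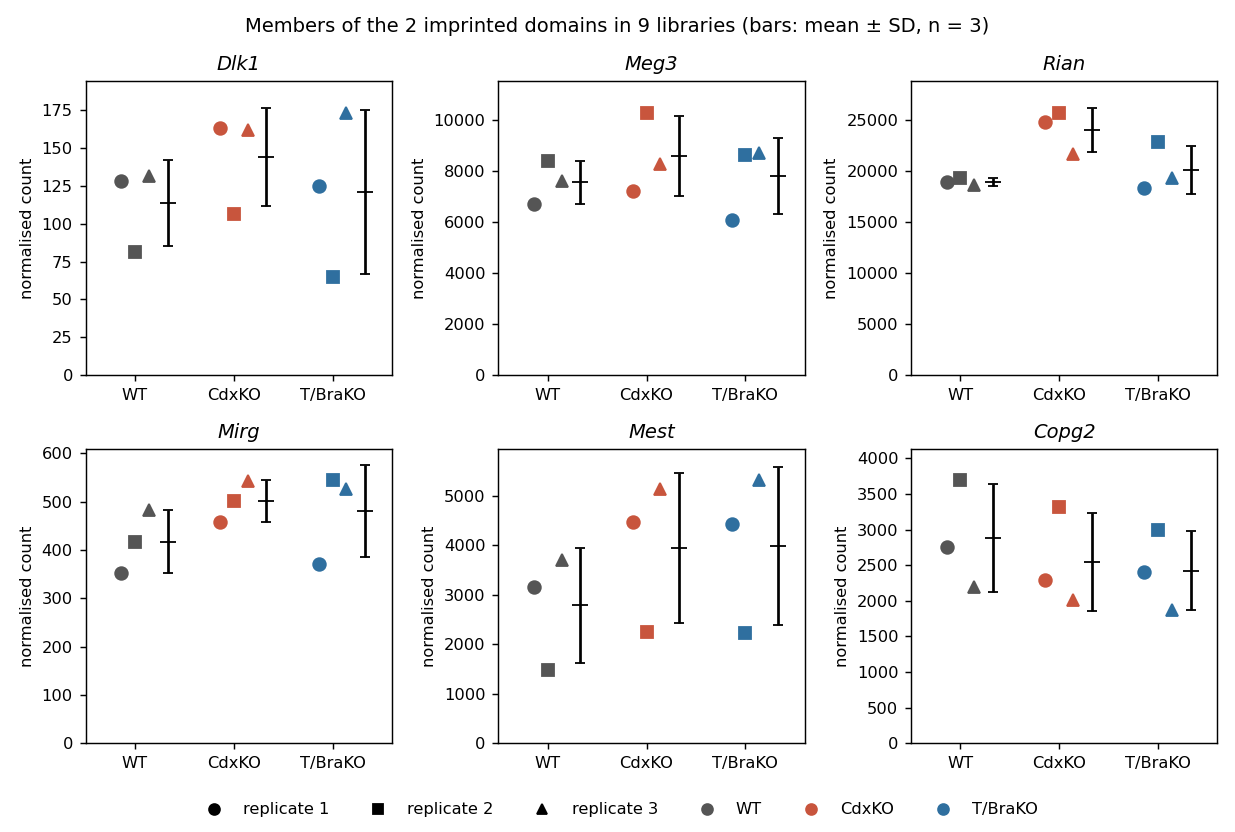
Normalised counts (y axis, from 0) of the 6 genes in each of the 9 libraries by genotype (x axis), with the replicate number as the symbol and the mean ± SD (n = 3) beside each group. Squares, replicate 2, are the lowest of each genotype for Dlk1 and Mest and the highest for Copg2.

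Counts below are normalised counts (size-factor scaled, so that libraries can be compared for 1 gene) and are listed for replicates 1, 2 and 3 in that order. Dlk1 encodes a transmembrane protein of the Notch ligand family that lacks the usual receptor-binding domain. It gave 128, 81.2 and 131 in WT, 163, 106 and 162 in CdxKO and 125, 65.0 and 173 in T/BraKO. Replicate 2 was the lowest in each genotype and the genotypes overlapped. The log2 difference from WT was 0.34 (SE 0.37) in CdxKO and 0.09 (SE 0.37) in T/BraKO.

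Meg3, the first of the maternal noncoding RNAs, gave 6716, 8398 and 7590 in WT. It gave 7211, 10287 and 8264 in CdxKO and 6102, 8641 and 8716 in T/BraKO. The lowest value of each genotype was replicate 1, and the genotypes overlapped. Its log2 difference from WT was 0.18 (SE 0.18) in CdxKO and 0.05 (SE 0.18) in T/BraKO.

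Rian, the host of most small nucleolar RNAs of the domain, was the steadiest of the 6 genes. It gave 18861, 19274 and 18567 in WT, 24731, 25690 and 21608 in CdxKO and 18283, 22767 and 19301 in T/BraKO. All 3 CdxKO libraries lay above all 3 WT libraries, and in the other 17 pairings of a gene and a comparison the groups overlapped. Groups did not overlap, in either direction, for 9.83% of all genes tested in CdxKO against WT, 9.24% for T/BraKO against WT and 15.1% between the mutants. The log2 difference of CdxKO from WT was 0.35 (SE 0.11), a 1.27-fold level. In T/BraKO it was 0.09 (SE 0.11), and CdxKO libraries overlapped those of T/BraKO, with a log2 difference of 0.26 (SE 0.11).

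Mirg, a microRNA host at the far end of the domain, gave 353, 417 and 483 in WT, 458, 502 and 544 in CdxKO and 371, 544 and 527 in T/BraKO. Replicate 1 was the lowest in each genotype. Its log2 difference from WT was 0.26 (SE 0.19) in CdxKO and 0.20 (SE 0.19) in T/BraKO, with overlapping groups in both.

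Mest varied most. It gave 3165, 1487 and 3710 in WT, 4471, 2251 and 5140 in CdxKO and 4430, 2224 and 5314 in T/BraKO. Replicate 2 was the lowest and replicate 3 the highest in each genotype, and the 3 mutant-to-mutant pairs of the same number were nearly level. The log2 difference from WT was 0.50 (SE 0.51) in CdxKO and 0.52 (SE 0.51) in T/BraKO, and the groups overlapped. The spread of log2 values within a genotype was 0.67 (SD) for Mest beside 0.12 for Rian.

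Copg2 ran the other way. It gave 2758, 3691 and 2188 in WT, 2300, 3322 and 2009 in CdxKO and 2408, 2994 and 1876 in T/BraKO. Replicate 2 was the highest and replicate 3 the lowest in each genotype. The log2 difference from WT was -0.18 (SE 0.25) in CdxKO and -0.25 (SE 0.25) in T/BraKO, with overlapping groups.

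In the fit without replicate number (DESeq2, threshold of adjusted p 0.05 over all genes), 0 of the 6 genes was called in any of the 3 comparisons. At an unadjusted p under 0.05, 1 gene stood in CdxKO against WT, 0 in T/BraKO against WT and 1 in CdxKO against T/BraKO, and edgeR called 0 in each. Over all genes tested, 0.335% were called higher and 0.358% lower in CdxKO against WT. For T/BraKO against WT the shares were 0.148% higher and 0.937% lower. Between the mutants, 2.52% were higher in CdxKO and 0.962% lower. The median log2 difference of the 6 genes from WT was 0.30 in CdxKO beside -0.0023 over all genes tested, and 0.09 in T/BraKO beside 0. Both mutants were set against the same WT libraries, so these differences are not independent of each other. The contrasts guided the choice of the 6 genes, so nothing is read from their counts at either threshold or from their medians. The share of all genes at an unadjusted p under 0.05 is not given here.

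Libraries of the same number deviated together, so each mutant library was also set beside the WT library of its number. Mest in CdxKO was 1.41, 1.51 and 1.39 times its WT partner in replicates 1, 2 and 3, and in T/BraKO 1.40, 1.496 and 1.43 times. All 6 ratios lay above 1 within a narrow range, although the levels differed by 3.57 times between the lowest and highest library. Between the mutants the Mest ratios of CdxKO to T/BraKO were 1.01, 1.01 and 0.967. Copg2 lay below its WT partner in all 6 pairs, at 0.834, 0.900 and 0.918 times in CdxKO and 0.873, 0.811 and 0.858 times in T/BraKO. Both mutants were divided by the same 3 WT libraries, so the 6 ratios of a gene are not 6 independent values. The genes were chosen with these values known, and the share of all genes with 6 ratios on 1 side is not given here.

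**Figure D2:**
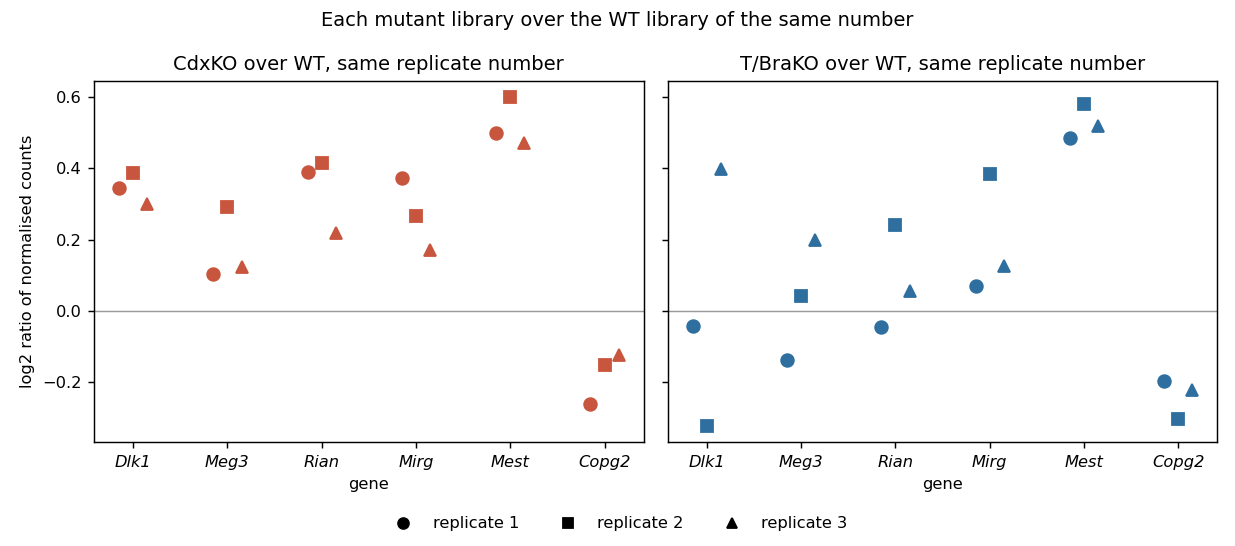
The log2 ratio of normalised counts (y axis) of each CdxKO (left) or T/BraKO (right) library over the WT library of the same replicate number, for each of the 6 genes (x axis). The 6 Mest ratios lie between 0.47 and 0.60 and the 6 Copg2 ratios below 0, while Dlk1, Meg3 and Rian lie on both sides of 0 in T/BraKO.

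Dlk1 in CdxKO was 1.27, 1.31 and 1.23 times its WT partner, and in T/BraKO 0.972, 0.8004 and 1.32 times. The 3 CdxKO pairs were alike and the 3 T/BraKO pairs were not. Rian in CdxKO was 1.31, 1.33 and 1.164 times WT and in T/BraKO 0.969, 1.18 and 1.04 times. Meg3 ranged from 1.07 to 1.22 times WT in CdxKO and from 0.909 to 1.15 times in T/BraKO, and Mirg from 1.13 to 1.296 and from 1.05 to 1.31 times.

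With the replicate number as a block in the DESeq2 fit, the log2 difference of Mest from WT was 0.52 (SE 0.06) in CdxKO and 0.53 (SE 0.06) in T/BraKO. That of Copg2 was -0.18 (SE 0.07) and -0.24 (SE 0.07), and that of Rian 0.34 (SE 0.06) and 0.08 (SE 0.06). Under the block, 2 of the 6 genes (Rian and Mest) were called higher in CdxKO, and 1 (Mest) higher and 1 (Copg2) lower in T/BraKO. Rian, 1 of the 6, was also called higher in CdxKO than in T/BraKO. Over all genes tested under the block, 3.40% were called higher and 1.91% lower in CdxKO against WT. The shares were 4.83% higher and 4.85% lower for T/BraKO, and 7.75% higher and 6.90% lower when CdxKO was compared with T/BraKO. Nothing is read from these counts, since the contrasts themselves guided the choice of genes.

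For Mest, replicate 2 stood further from the other replicates than either mutant did from WT. Averaged over genotypes in the block fit, replicate 2 differed from replicate 1 by -1.02 (SE 0.06) and from replicate 3 by -1.25 (SE 0.06) on the log2 scale. Of 12316 genes with a mean of at least 50 normalised counts, 246 and 225 had larger differences in these contrasts. Copg2 differed in the other direction, by 0.42 (SE 0.07) and 0.72 (SE 0.07), with 1849 and 1016 genes further apart. Replicate 3 differed from replicate 1 by 0.23 (SE 0.06) for Mest, less than either mutant did from WT, and by -0.30 (SE 0.07) for Copg2. In this contrast 3259 and 2210 genes were further apart.

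Dlk1 was also low in replicate 2, by -0.73 (SE 0.23) against replicate 1 and -0.90 (SE 0.23) against replicate 3. Meg3 was higher in replicate 2 than in replicate 1 by 0.45 (SE 0.07) and differed from replicate 3 by 0.15 (SE 0.07). Mirg was higher in replicates 2 and 3 than in replicate 1, by 0.31 (SE 0.12) and 0.40 (SE 0.12). Rian was higher in replicate 2 by 0.13 (SE 0.06) against replicate 1 and by 0.18 (SE 0.06) against replicate 3. Of the 12316 genes, 7247 and 7187 were further apart than Rian in these contrasts, 620 and 579 than Dlk1 and 1673 and 8054 than Meg3. For Mirg, 3125 and 1250 were further apart in replicates 2 and 3 against replicate 1. These differences are descriptions, since the values across replicate numbers were also known when the genes were chosen.

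Ratios of genes within a library were taken in TPM and set beside the ranges of the single genes. Rian stood at 1.93 to 3.02 times Meg3 and Mirg at 0.123 to 0.170 times Meg3 over the 9 libraries. These are 1.56-fold and 1.38-fold ranges, beside 1.78-fold for Meg3, 1.46-fold for Rian and 1.51-fold for Mirg alone. The Rian to Meg3 ratio was thus no steadier than Rian by itself. Dlk1 stood at 0.0052 to 0.0155 times Meg3, a 2.99-fold range, with its 3 lowest ratios in the 3 replicate 2 libraries. The Mest to Copg2 ratio ran from 0.683 to 4.81, a 7.05-fold range. It was 1.93, 0.683 and 2.87 in WT, 3.29, 1.15 and 4.32 in CdxKO and 3.10, 1.27 and 4.81 in T/BraKO, higher in each mutant library than in the WT library of its number.

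Marker lists also differed between replicate numbers. The summed normalised counts of the 11 caudal epiblast markers, the state the cells are named for, were 19421 to 30062 in replicate 2 and 31083 to 36143 and 32583 to 37051 in replicates 1 and 3. The summed normalised counts of 10 naive pluripotency genes were 5573 to 7076 in replicate 2 and 1989 to 3016 and 3508 to 4018 in replicates 1 and 3. The sum of 8 primed epiblast markers was 48415 to 62011 in replicate 1, 46225 to 58398 in replicate 2 and 60535 to 79252 in replicate 3, so that replicates 1 and 2 overlapped. The 15 markers of feeder fibroblasts, on which the ES lines were kept before 2 rounds of plating to remove them, were all detected in every library, with sums of 7229.5 to 9502 in replicate 1, 6995 to 11849.6 in replicate 2 and 5122 to 7482 in replicate 3, which overlapped. By genotype the fibroblast sums were 6629 to 10010 in WT, 7482 to 11849.6 in CdxKO and 5122 to 7229.5 in T/BraKO. The sum of 8 paraxial mesoderm markers was 1347 to 4048 in replicate 1, 697 to 2064 in replicate 2 and 1491 to 2650 in replicate 3. For 12 markers of lateral and extraembryonic mesoderm it was 5623 to 7667, 6968 to 8690 and 2536 to 6232 in the same order. The sum of 9 endoderm markers was 2217 to 3827, 2767 to 4580 and 4172 to 5197. That of 7 neural markers was 716 to 1380, 410 to 488 and 214 to 699. For 11 trophoblast markers, which include Cdx2, it was 8767 to 11150, 7657 to 9704 and 5662 to 7890. Mest, Dlk1 and Meg3 are expressed in mesoderm and fibroblasts as well, and the part of these cells and states in the levels above was not tested. In bulk RNA, fewer cells of a type and less RNA per cell cannot be told apart.

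Genes around the domains were read next, as 102 rows made up of genes listed by name and all genes within 500 kb of either domain, of which 34 had any count. DESeq2 tested 25 of them in CdxKO against WT, 34 in T/BraKO against WT and 23 in CdxKO against T/BraKO, and called 0 in each comparison. At an unadjusted p under 0.05 the numbers were 0, 1 and 1, and edgeR called 0. With the replicate block DESeq2 called 1, Wars, the tryptophanyl-tRNA synthetase gene, which was higher in T/BraKO than in WT by 0.17 (SE 0.06, DESeq2 adjusted p = 0.038) on the log2 scale. The median log2 difference of the tested neighbours was 0.0045 in CdxKO and 0.03 in T/BraKO.

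The other paternally expressed genes of the Dlk1-Meg3 domain were scarce. Rtl1, derived from a retrotransposon, gave normalised counts of 4.50, 3.87 and 6.53 for WT, 2.51, 0 and 2.82 in CdxKO and 5.52, 3.66 and 5.38 in T/BraKO. It lies on the strand opposite Meg3 and Rian and overlaps both in the annotation. Dio3, a deiodinase that inactivates thyroid hormone, gave 10.1, 22.2 and 15.8 in WT and 32.6, 12.5 and 15.05 in CdxKO. In T/BraKO it gave 29.8, 129 and 26.0, so that 1 library carried most of the difference of 1.94 (SE 0.70, DESeq2 adjusted p = 0.28) from WT. Klf14, a maternally expressed transcription factor gene near Copg2, gave 37.1 to 59.7 in WT, 23.8 to 47.0 in CdxKO and 36.4 to 60.5 in T/BraKO, and was not called.

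**Figure D3:**
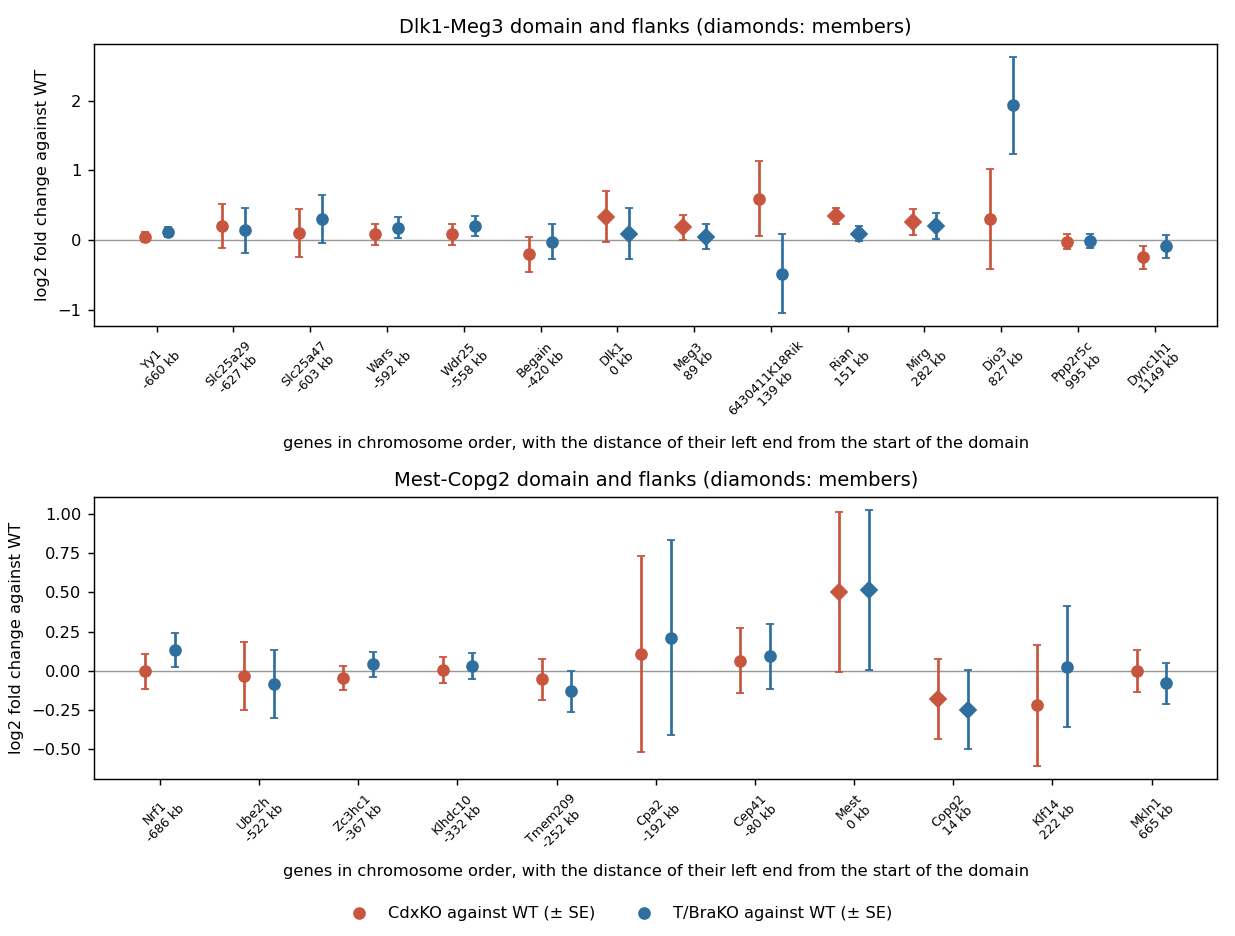
Log2 fold change against WT (y axis, ± SE, n = 3 libraries a group) of the 6 genes (diamonds) and of neighbours with a mean of at least 10 normalised counts (circles), in chromosome order with the distance in kb of the left end of each gene from that of Dlk1 (top) or Mest (bottom). Dio3 in T/BraKO, at 1.94, stands furthest from 0, and Mest stands at 0.50 in CdxKO and 0.52 in T/BraKO with wide errors.

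Imprinted genes outside the 2 domains show what called differences looked like in the same libraries. Of 55 listed, 6 were higher and 7 lower of 52 tested in CdxKO, 2 higher and 1 lower of 54 in T/BraKO, and 9 higher and 5 lower of 51 in CdxKO against T/BraKO. Their median absolute log2 difference from WT was 0.46 in CdxKO, beside 0.30 for the 6 genes of the 2 domains and 0.12 for all genes tested. In T/BraKO the same medians were 0.25, 0.15 and 0.15. With the block the calls were 17 higher and 8 lower in CdxKO against WT. They were 7 higher and 8 lower for T/BraKO, and 18 higher and 8 lower when the mutants were compared.

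In CdxKO, Cdkn1c, a maternally expressed inhibitor of cyclin-dependent kinases, fell by 5.16 on the log2 scale (SE 0.25, DESeq2 adjusted p = 1.83e-87). Grb10, an adaptor that dampens insulin signalling, fell by 1.73 (SE 0.21, DESeq2 adjusted p = 1.73e-12). Nnat rose by 1.66 (SE 0.22, DESeq2 adjusted p = 8.97e-11) and H19, a noncoding RNA next to Igf2, by 3.96 (SE 0.92, DESeq2 adjusted p = 0.0048). The H19 call was lost without WT replicate 1 (DESeq2 adjusted p = 0.11) or CdxKO replicate 2 (DESeq2 adjusted p = 0.12). Without the block, edgeR called 1 of the other imprinted genes higher and 3 lower in CdxKO against WT. It thus did not call both Nnat and H19. In T/BraKO, Peg13 rose by 0.84 (SE 0.21, DESeq2 adjusted p = 0.0073) and Zdbf2 by 0.45 (SE 0.11, DESeq2 adjusted p = 0.0027), while Zrsr1 fell by 0.54 (SE 0.13, DESeq2 adjusted p = 0.0049). The Peg13 call was lost without WT replicate 1 or without T/BraKO replicate 1 or 3, the Zrsr1 call without WT replicate 1 or 2 or T/BraKO replicate 3, and the Zdbf2 call without T/BraKO replicate 1 (DESeq2 adjusted p from 0.076 to 0.16). With edgeR the adjusted p of these 3 genes ran from 0.087 to 0.20.

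**Figure D4:**
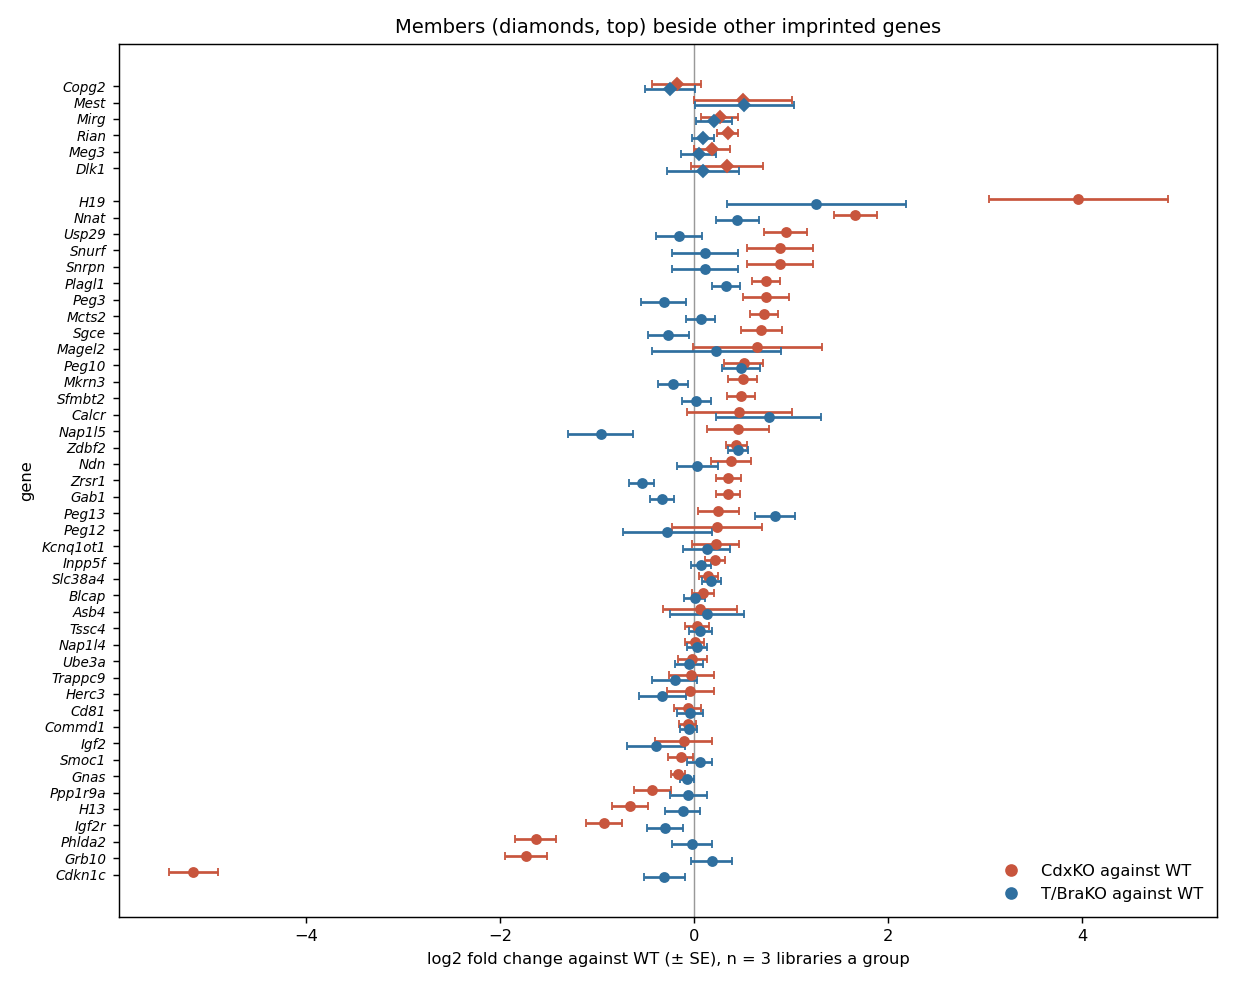
Log2 fold change against WT (x axis, ± SE, n = 3 libraries a group) of the 6 genes (diamonds, top) and of other imprinted genes with a mean of at least 50 normalised counts (circles), in CdxKO and T/BraKO. The diamonds lie between -0.25 and 0.52, and Cdkn1c at -5.16 and H19 at 3.96 in CdxKO mark the ends of the plot.

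Among 24 tested genes that set or keep imprints, 0 was called in any comparison by DESeq2, with 2, 0 and 2 at an unadjusted p under 0.05 in CdxKO against WT, T/BraKO against WT and CdxKO against T/BraKO, and 0 called by edgeR. The block fit called 0 higher and 2 lower, 1 and 2, and 3 and 4 in the same order. Zfp57, which keeps methylation at imprints through the core shown above, had a mean normalised count of 1255 ± 149 for WT, 1383 ± 236 for CdxKO and 1329 ± 309 for T/BraKO (SD, n = 3). Dnmt3l, a cofactor of de novo DNA methylation, averaged 164 ± 75.5, 151 ± 34.3 and 180 ± 72.3 (SD, n = 3). Averaged over genotypes both were highest in replicate 2, where Zfp57 averaged 1578 and Dnmt3l 215. They averaged 1127 and 99.9 in replicate 1 and 1262 and 181 in replicate 3. Of the 24, Zfp42 and Dppa3 also stand in the naive pluripotency list. A DESeq2 likelihood ratio test of replicate number, chosen after the data were seen, called 15 of the 24 genes, 29 of 48 other imprinted genes and 6 of 19 neighbours, beside 47.9% of all genes tested. Of those 15, 6 averaged highest in replicate 2, 8 lowest and 1 in between. Trim28, a corepressor that ZFP57 recruits, and Dnmt3b, a de novo DNA methyltransferase, were named after their values were seen as 2 of the lowest, with averages of 25541, 22295 and 28144 and of 9764, 8483 and 15983 in replicates 1, 2 and 3.

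Partners of the proteins encoded by Dlk1 and Copg2 were read from 2 further lists. Of 19 genes of Notch signalling, 0 was called in CdxKO (1 at an unadjusted p under 0.05, and 0 by edgeR). In T/BraKO 1 was lower, Dll1, the main Notch ligand of the presomitic mesoderm, which fell by 1.05 (SE 0.23, DESeq2 adjusted p = 0.0015), a call that edgeR did not make (adjusted p = 0.094). Dll1 and the Notch target Hes1 were higher in CdxKO than in T/BraKO. With the replicate block the Notch calls were 1 lower in CdxKO against WT, 4 lower for T/BraKO, and 6 higher and 1 lower between the mutants. The 1 in CdxKO was the segmentation clock gene Hes7, at -0.90 (SE 0.20, DESeq2 adjusted p = 0.00040), named after its value was seen. Of 9 genes of the COPI coat, 0 was called in any comparison by DESeq2 or edgeR without the block, with 0, 1 and 1 at an unadjusted p under 0.05. With the block DESeq2 called 1, between the mutants. This was the coat subunit gene Copz2, named after its value was seen, which was higher in CdxKO by 0.87 (SE 0.28, DESeq2 adjusted p = 0.018). With the block edgeR called 1 gene lower in T/BraKO than in WT and 1 higher in CdxKO than in T/BraKO. Copg1, the paralogue of Copg2, had a mean normalised count of 5492 ± 356 for WT, 5738 ± 439 for CdxKO and 5505 ± 517 for T/BraKO (SD, n = 3). The ratio of Copg2 to Copg1 in TPM ran from 0.286 to 0.693 and was highest in replicate 2 of each genotype.

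The genes whose profile over the 9 libraries lay closest to that of Meg3 were Ppcdc, Kdm4c and Mcoln3, with root mean square differences of 0.082 to 0.085 on the centred log2 scale beside a deviation of 0.21 for Meg3 itself. For Mest they were Nptx1, at 0.13, Shisa6 and Rerg, at 0.20, beside a deviation of 0.60. The 6 genes of the 2 domains and the 102 neighbour rows were left out of this search, so no gene of either domain could be found. Rerg, on the same chromosome as Mest, starts at chr6:137054825.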

How the data were processed

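Polyadenylated RNA of 9 libraries, 3 each of WT, CdxKO and T/BraKO CEpiLCs, was sequenced by the authors as strand-specific single-end reads. Per the labels and the study's methods, the authors trimmed reads with cutadapt (1.16), aligned them with STAR (2.5.2a) to mm10 with RefSeq genes and counted them with RSEM (1.3.0) on the reverse strand; the submitters' processing notes also name DESeq2 (1.16.1). The deposited table holds RSEM expected counts and TPM for 24736 genes, and 3.75% to 4.00% of the expected counts per library are not whole numbers.

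Expected counts were rounded and fitted in DESeq2 (1.42.0, R 4.3.3) with genotype as the only term and all 9 libraries, with Benjamini-Hochberg adjustment over all genes tested and a threshold of 0.05. Normalised counts are rounded counts divided by DESeq2 size factors. Alternatives were a replicate block, edgeR (4.0.16) with and without it, TMM factors, a minimum of 10 counts in 3 libraries, only the 6 libraries compared, an adjusted p of 0.01, the ratio of TPM means and leaving out libraries. The deposited TPM values, scaled by the authors to transcript length and depth, were used only for levels and ratios between genes.

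The numbers pair the libraries by the data, not by the labels. Over 12316 genes, deviations from the genotype mean correlated at 0.532 to 0.814 in all 9 same-number pairs and at -0.690 to 0.134 in the other 18. The leave-outs of a replicate number in every group and the test of replicate number were added after the data were seen. No 2 libraries of a genotype were duplicates (chi-square per gene at least 33.2, where 1 is sampling noise). Depth per library bounds low values, since a floor of 3 counts came to 0.0864 to 0.119 CPM, and this covers counting error only.

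The 6 genes and the gene lists were chosen with earlier results of these data known. Genes named beyond the 6 are called neighbours, imprinted genes of the 2 domains, the up to 4 called genes with the largest change per list and comparison (mean of at least 50 normalised counts in the higher group), Copg1, Zfp57, Dnmt3l, the 3 genes nearest in profile to Meg3 and Mest, and line checks. Of the table's genes, 24076 matched RefSeq annotation on GRCm38.p6 by symbol and 564 by synonym. Promoter windows and microRNAs come from RefSeq on GRCm38.p6. Protein sequences were not used here.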

Additional observations from a re-analysis of the deposited data

Results flagged for a closer look

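A direct comparison of the mutants differed for 8 genes named from the lists (DESeq2, adjusted p of 0.05 or less, the difference between the mutants' changes from WT). None of the 6 genes of the 2 domains was among them. Lower in CdxKO than in T/BraKO on the log2 scale were Cdkn1c at -4.85, Grb10 at -1.92 and Phlda2, a maternally expressed growth regulator of the placenta, at -1.61. Higher in CdxKO were Nap1l5 at 1.41, Nnat at 1.22, Dll1 at 1.14, Zrsr1 at 0.89 and Hes1 at 0.40. The Hes1 call was lost with edgeR (adjusted p = 0.19), with only the 6 libraries compared (DESeq2 adjusted p = 0.11) and without any single library other than T/BraKO replicate 3 or CdxKO replicate 3 (DESeq2 adjusted p from 0.050 to 0.25). The check of gaps within a group needs 4 libraries and was not run on these groups of 3.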

How the results depend on the processing

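All 342 log2 differences of the 6 genes (3 comparisons, 19 alternatives) lay within 1 SD of the values given. For Dlk1, Mest and Copg2 the SD of log2 values within a genotype (0.51, 0.67 and 0.36) was larger than the differences themselves. Leaving out libraries, Mest differed from WT by 0.20 to 0.79 in CdxKO and 0.21 to 0.80 in T/BraKO, Rian in CdxKO by 0.30 to 0.42 and Copg2 in CdxKO by -0.42 to 0.04. Other ranges on both sides of 0 included Dlk1 (-0.27 to 0.39) and Meg3 (-0.04 to 0.20) in T/BraKO against WT. Mest between the mutants ran from -0.30 to 0.27. The replicate block changed counts of calls most. Other imprinted genes called numbered 25, 15 and 26 under the block in CdxKO against WT, T/BraKO against WT and CdxKO against T/BraKO, 26, 15 and 28 with edgeR and the block, and 4 and 0 in the first pair of comparisons with edgeR alone (26 and 9 at an unadjusted p under 0.05), against 13, 3 and 14. Imprint control genes numbered 2, 3 and 7 under the block and 2, 4 and 9 with edgeR and the block, against 0. Neighbours called in T/BraKO numbered 1 under the block and 2 with edgeR and the block. Leaving out libraries, other imprinted genes called ran from 5 to 15, 0 to 4 and 6 to 16, with the lowest counts without replicate 1 in every group. The T/BraKO count was 1 without WT replicate 1 or T/BraKO replicate 1. Imprint control genes ran from 0 to 2 between the mutants, with 2 without replicate 2 in every group, and stayed at 0 in the other comparisons, as neighbours did in all 3. Of the 3 genes nearest to Mest, 1 was shared when TPM was used. No direction reversed in a called result, and the cause of the changes was not tested. At these depths Rtl1 and Dio3, near the floor of 3 counts or varying between libraries, limit what can be said of the paternal genes.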
